A study of Mus musculus with 4 samples.

Results

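The transcripts of 35 genes of fatty acid, glycerolipid and sterol synthesis were followed in nuclei of injured mouse liver. They were taken by symbol from the 32292 rows of the deposited feature lists, and all 35 were found. All mice were male, began the study at 10 to 11 weeks of age and ate DDC, which damages the biliary tree, over 4 weeks. In CKO mice Rbpj, through which Notch receptors act on DNA, was deleted in hepatic progenitor cells, and WT mice were wild type. Each genotype had 2 libraries. Hepatocytes are not the cells named as the target of the deletion, and the promoter that drives it is not given in the sources used here. The labels do not say that replicates are separate animals, so every p between genotypes measures the spread between libraries, which may be technical. A p between classes or zones is instead set against how that difference varied across the same libraries.

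Hepatocytes build fatty acids from cytosolic acetyl-CoA, desaturate and elongate them, and esterify them into triglyceride. The same acetyl-CoA feeds the mevalonate pathway to cholesterol. SREBP transcription factors, held in the endoplasmic reticulum by INSIG proteins while sterols are plentiful, drive both branches, and ChREBP (Mlxipl) adds a response to sugar.

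Nuclei were called hepatocyte nuclei when they had at least 3000 UMIs (counted molecules), at least 3 of 10 hepatocyte markers and no more than 0.3% of UMIs from 70 markers of other cells, none of them a member. This gave 1123 and 608 WT nuclei (replicate 1, then replicate 2, as in every pair of values below) and 575 and 834 CKO nuclei, holding 3081935 to 7424889 UMIs per library. All 10 hepatocyte markers were found in each library, but their sum (1.99 to 2.25% of UMIs) was no higher than in the 4 other classes tested (2.01 to 3.95%) and does not by itself set these nuclei apart. Of the 10, Hnf4a, the hepatocyte transcription factor, stood at 392 to 470 CPM over the 4 libraries, against 79.0 to 316 CPM in the 4 other classes tested, and Cps1, the urea cycle enzyme, at 3411 to 5196 CPM against 1152 to 2675 CPM. The secreted-protein transcripts Alb, Apob, Ttr, Apoa1 and Serpina1c were lower than in each other class in every library. Ass1 was higher in every library, and Cyp2e1 and Pck1 differed in direction between libraries or classes. The Leiden clusters that hold most of these nuclei raised 2 to 4 hepatocyte markers and 1 to 5 cholangiocyte markers, and none took the hepatocyte name. Cholangiocyte markers (14 of 14 found in each library) made up 0.0815 to 0.105% in WT and 0.071 to 0.0958% in CKO libraries. The CKO libraries stood apart from each other in opposite ways. CKO replicate 1 was below, and CKO replicate 2 above, both WT libraries for 7 of 7 tested genes with male-biased liver expression. All 4 libraries carried Y-linked transcripts (1074 to 3326 UMIs) and almost no Xist (2 to 4 UMIs). For 13 clock genes CKO replicate 1 was under each WT library 9 times and over each of them 4 times (36.2% of all genes were over). CKO replicate 2 was over each WT library 8 times (37.5% of all genes were) and under each of them 4 times. The shares of all genes under both WT libraries in a single CKO library were not computed. The time of day and the feeding state are not given in the sources used here. Mitochondrial transcripts had a median share per nucleus of 0.572 and 0.154% in WT libraries, and of 1.46 and 0.272% in CKO libraries. The part of these differences in the results was not tested. Rbpj itself stood at 57.9 and 50.2 CPM (counts scaled to library size with TMM factors) in WT libraries, against 61.5 and 50.9 CPM in CKO libraries. The deleted exons are not given in the sources used here, so this 3' count does not check the deletion.

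The first comparison asked how the 35 genes differed between CKO and WT hepatocyte nuclei. Their summed share of UMIs was 0.556% and 0.680% in the WT libraries and 0.883% and 1.31% in the CKO libraries. The fitted log2 change was above 0 for 34 of 35, with a median of 0.81, beside 0.00 over all 12565 genes tested. Both CKO libraries stood above both WT libraries for 26 of the 35, against 11.9% of all genes, and both stood below for 0 of the 35, against 13.3%. Members also shifted together within a genotype, with WT replicate 2 above WT replicate 1 for 32 of the 35 (share of all genes not computed). These counts are therefore not 35 separate observations. The median was 0.78 within replicate number 1 and 0.71 within replicate number 2. It was 0.86 without CKO replicate 1 and 0.61 without CKO replicate 2. With 1 CKO library at a time, 28 members in CKO replicate 1 (36.2% of genes) and 32 in CKO replicate 2 (37.5% of genes) lay above both WT libraries. A stricter limit of 0.1% for other cells' markers, which keeps 27 to 375 nuclei per library, gave a median of 0.99, with 22 of 32 tested members above, against 12.7% of genes. In edgeR's quasi-likelihood test 0 of the 35 passed an adjusted p of 0.05, as did 0 of all genes (0%). Leaving out 1 library called 0 to 27 genes, most without CKO replicate 1, and 0 members. Without adjustment 15 members had a p under 0.05, where 203 of all genes (1.62%) did. DESeq2 called 4 genes, of which Scd1 was the only member (adjusted p = 0.00787). No single member therefore differed beyond the spread between libraries by the edgeR test over all genes, and each edgeR adjusted p for this comparison was 0.9999.

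**Figure D1:**
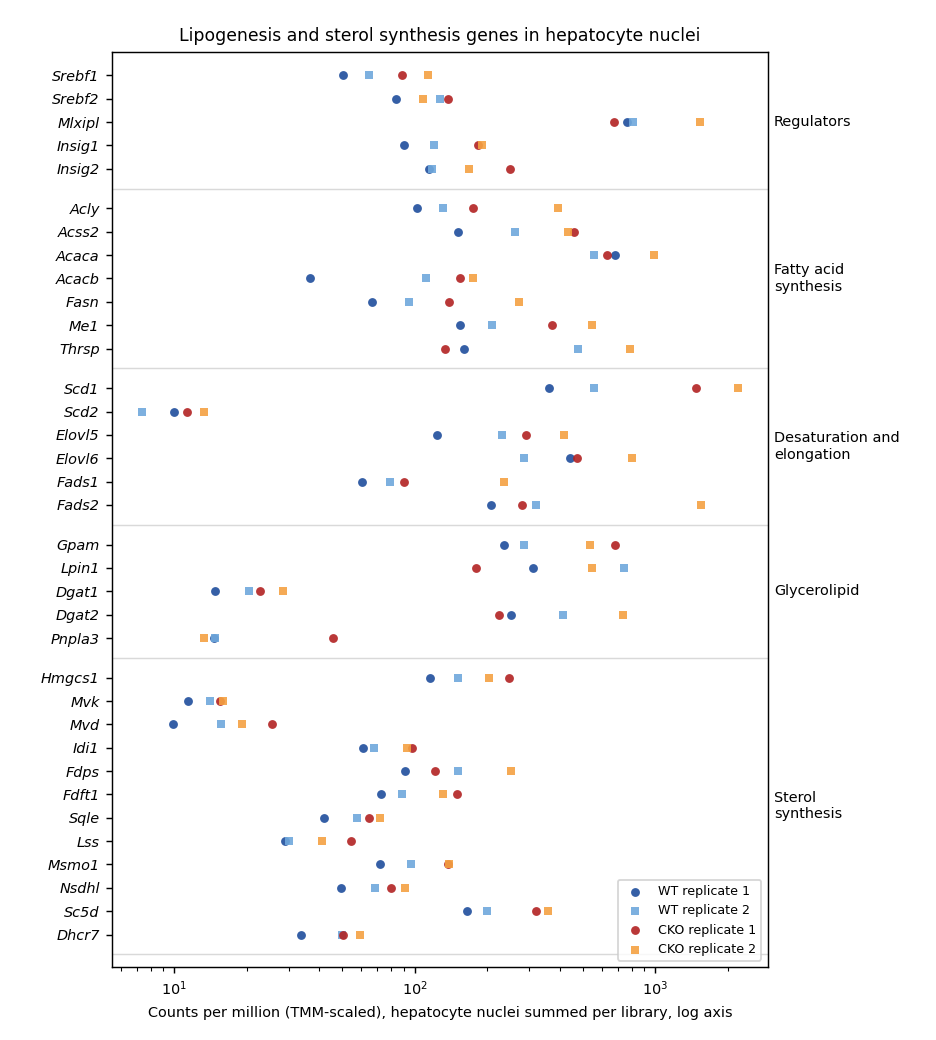
Level of each of the 35 genes in hepatocyte nuclei of the 4 libraries, in TMM-scaled CPM on a log axis, grouped by role. Blue points are WT and red or orange points CKO libraries. Both CKO points lie to the right of both WT points for 26 genes, and Scd1 shows the widest gap.

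Among the regulators, Srebf1, which encodes SREBP-1 and drives fatty acid genes, stood at 50.5 and 64.6 CPM in WT and 88.3 and 113 CPM in CKO. The CKO libraries did not overlap the WT libraries, with a log2 change of 0.81 (SE 0.24). Insig1 was 90.4 and 120 CPM in WT and 183 and 190 CPM in CKO, the CKO pair close together (log2 change 0.83, SE 0.23). Insig2 was 115 and 118 CPM in WT and 250 and 168 CPM in CKO (0.85, SE 0.27). Both encode the proteins that retain SREBP in the endoplasmic reticulum, and both stood higher in both CKO libraries. Srebf2, the sterol-gene SREBP, overlapped at 83.8 and 127 CPM in WT and 137 and 109 CPM in CKO. Its log2 change of 0.22 became -0.049 without WT replicate 1. Mlxipl overlapped too, at 763 and 804 CPM in WT and 673 and 1538 CPM in CKO, so that its log2 change of 0.50 became -0.21 without CKO replicate 2.

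Of the 7 fatty acid synthesis genes, 5 stood higher in both CKO libraries, and the median log2 change was 1.16. Fasn, the synthase itself, was 66.7 and 95.1 CPM in WT and 139 and 273 CPM in CKO (2.54 times the WT mean, log2 change 1.35, SE 0.41). Me1, malic enzyme, which supplies NADPH, was 154 and 210 CPM in WT and 371 and 546 CPM in CKO (log2 change 1.34, SE 0.32). Both genes were highest in CKO replicate 2 and lowest in WT replicate 1. Acly, which makes acetyl-CoA from citrate, was 102 and 132 CPM in WT and 176 and 393 CPM in CKO. Acss2, which makes it from acetate, was 151 and 261 CPM in WT and 458 and 434 CPM in CKO, so the CKO libraries were alike for Acss2 and unlike for Acly. Acacb, the acetyl-CoA carboxylase isoform at mitochondria, was 36.6 and 112 CPM in WT and 154 and 175 CPM in CKO. Acaca, the cytosolic isoform, overlapped at 683 and 558 CPM in WT and 633 and 990 CPM in CKO. Thrsp (Spot 14), a regulator of lipogenesis, was 161 and 478 CPM in WT and 134 and 782 CPM in CKO. Both genotypes spanned a wide range for Thrsp, and its log2 change of 0.52 became -0.06 without WT replicate 1 and -1.25 without CKO replicate 2.

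Scd1, the liver's main stearoyl-CoA desaturase (ENSMUSG00000037071, chromosome 19, 44394455 to 44407879 on the - strand of mm10), had the largest log2 change of the 35. It stood at 363 and 558 CPM in WT and 1472 and 2202 CPM in CKO, on 1666 to 7614 UMIs per library. The means differed 3.99-fold, with a log2 change of 1.998 (SE 0.40), and of 2.02 and 1.98 within the replicate numbers. Leaving out 1 library at a time gave 1.69 to 2.36. In the barcodes with the fewest UMIs, taken below as free RNA, the Scd1 means differed 3.95-fold. As given below, Scd1 RNA of nuclei and free Scd1 RNA cannot be told apart at this level. Scd2, the isoform better known from brain, was near its detection limit at 7.36 to 13.3 CPM (22 to 79 UMIs), with the CKO libraries on top. Fads1, the delta-5 desaturase of polyunsaturated fatty acids, was 60.2 and 78.7 CPM in WT and 90.1 and 236 CPM in CKO. Fads2, the delta-6 desaturase, was 208 and 318 CPM in WT and 280 and 1555 CPM in CKO, so that CKO replicate 1 lay between the WT libraries. For both desaturases CKO replicate 2 stood far above the other 3 libraries. The elongase Elovl5 was 124 and 230 CPM in WT and 289 and 417 CPM in CKO (log2 change 0.998, SE 0.39). Elovl6, which extends palmitate, was 442 and 284 CPM in WT and 474 and 802 CPM in CKO, with CKO replicate 1 just above WT replicate 1.

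The glycerolipid genes were the least uniform group, with 2 of 5 higher in both CKO libraries. Gpam, the mitochondrial acyltransferase of the first step, was 235 and 285 CPM in WT and 679 and 535 CPM in CKO (log2 change 1.22, SE 0.27). Dgat1, an enzyme of the last step to triglyceride, was 14.9 and 20.4 CPM in WT and 22.9 and 28.3 CPM in CKO. Its counterpart Dgat2 overlapped at 251 and 412 CPM in WT and 224 and 733 CPM in CKO, with a log2 change of 0.53 that became -0.55 without CKO replicate 2. Pnpla3, a lipid droplet protein, was high in 1 library only, CKO replicate 1, at 45.7 CPM beside 13.3 to 14.7 CPM in the others. Lpin1, a phosphatidate phosphatase, was the single member with a negative log2 change (-0.53, SE 0.68), at 310 and 739 CPM in WT and 180 and 545 CPM in CKO. The second replicates were the higher ones in each genotype, and the sign of the Lpin1 change turned without WT replicate 2 (0.24) or CKO replicate 1 (0.06).

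Of the 12 sterol synthesis genes, 11 stood higher in both CKO libraries, with fold differences of the means from 1.23 to 1.85 and a median log2 change of 0.66. In the order of the pathway, Hmgcs1, which makes HMG-CoA, was 116 and 151 CPM in WT and 247 and 204 CPM in CKO (log2 change 0.76, SE 0.25). Idi1, the isopentenyl diphosphate isomerase, was 60.7 and 67.6 CPM in WT and 97.2 and 93.1 CPM in CKO (0.57, SE 0.19). Fdft1, squalene synthase, was 72.3 and 88.4 CPM in WT and 150 and 131 CPM in CKO (0.81, SE 0.22). For these 3 genes CKO replicate 1 was the highest library, whereas CKO replicate 2 was the highest for all 6 desaturation and elongation genes. Further down, Lss, which closes lanosterol's rings, was 28.8 and 30.1 CPM in WT and 54.4 and 41.1 CPM in CKO. Msmo1, the methylsterol monooxygenase, was 71.5 and 96.4 CPM in WT and 137 and 139 CPM in CKO. Sc5d, the lathosterol desaturase, was 165 and 200 CPM in WT and 319 and 359 CPM in CKO (0.89, SE 0.23). These late-step genes had CKO libraries above both WT libraries in each case. The kinase and decarboxylase Mvk and Mvd were low (9.90 to 25.5 CPM), and Sqle, Nsdhl and Dhcr7 lay between 33.8 and 91.4 CPM, each with both CKO libraries on top. Fdps, farnesyl diphosphate synthase, was the exception, at 91.2 and 152 CPM in WT and 121 and 251 CPM in CKO.

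**Figure D2:**
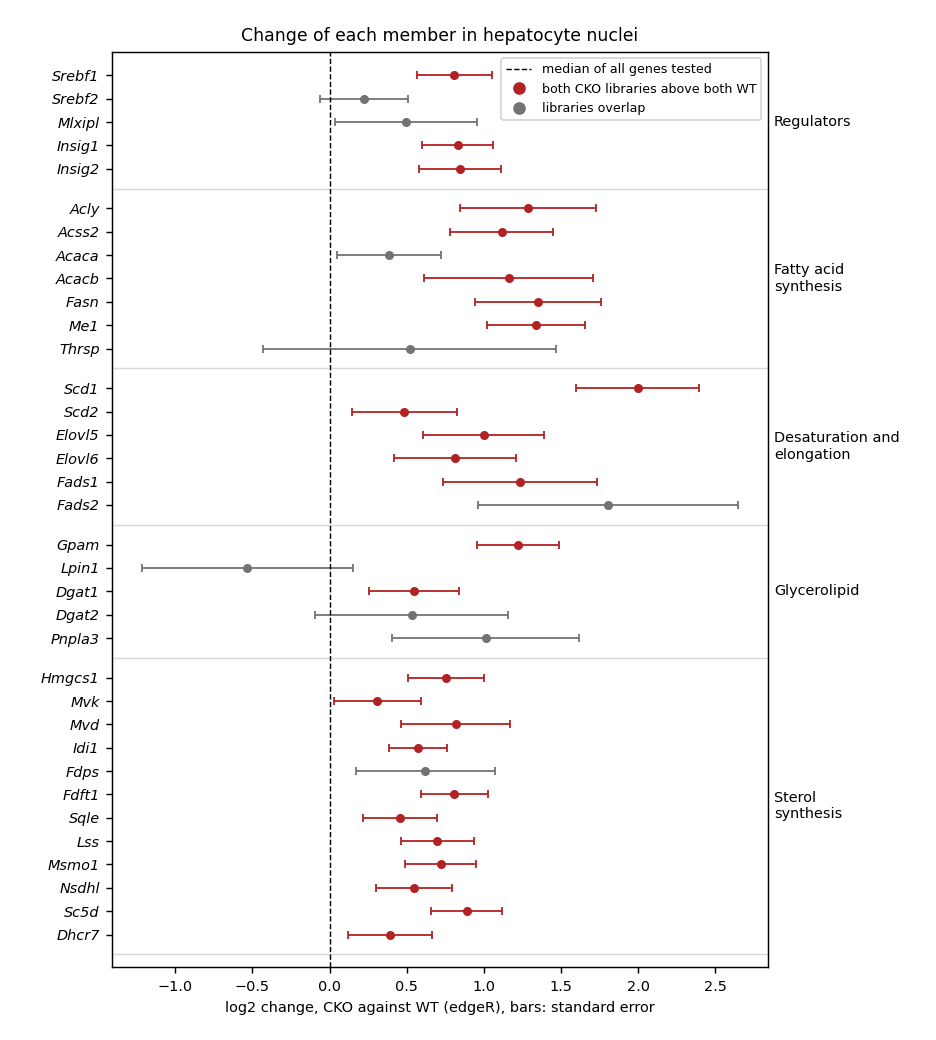
Fitted log2 change (CKO against WT) of each gene in hepatocyte nuclei with its standard error, beside the median of all genes tested (dashed, 0.00). 34 of 35 points lie above 0, Scd1 highest at 1.998 and Lpin1 lowest at -0.53, and red points are the 26 genes with both CKO libraries above both WT libraries.

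The reference holds promoters for 27 of the 35 genes, and 3 are shown because their genes belong to different branches and all stood higher in both CKO libraries. Each is the 250 bases before a RefSeq transcript start in GRCm38.p6, 5′ to 3′ on the gene's strand, with matches to TCACNCCAC, CCAAT or CACGTG on either strand in capitals. Hmgcs1 lies on chromosome 13 (chr13:119690101-119690350, + strand), Insig1 on chromosome 5 (chr5:28071162-28071411, + strand) and Fasn on chromosome 11 (chr11:120824548-120824797, - strand).
Hmgcs1: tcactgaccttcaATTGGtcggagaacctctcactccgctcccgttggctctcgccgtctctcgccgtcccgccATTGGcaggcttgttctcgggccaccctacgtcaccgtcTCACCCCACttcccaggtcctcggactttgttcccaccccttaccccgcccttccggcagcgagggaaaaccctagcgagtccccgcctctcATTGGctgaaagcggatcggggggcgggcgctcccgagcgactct
Insig1: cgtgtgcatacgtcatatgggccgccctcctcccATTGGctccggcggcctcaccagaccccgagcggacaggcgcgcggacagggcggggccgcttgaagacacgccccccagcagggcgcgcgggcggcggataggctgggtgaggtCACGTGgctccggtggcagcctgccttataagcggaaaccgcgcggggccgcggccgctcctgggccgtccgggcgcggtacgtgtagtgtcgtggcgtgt
Fasn: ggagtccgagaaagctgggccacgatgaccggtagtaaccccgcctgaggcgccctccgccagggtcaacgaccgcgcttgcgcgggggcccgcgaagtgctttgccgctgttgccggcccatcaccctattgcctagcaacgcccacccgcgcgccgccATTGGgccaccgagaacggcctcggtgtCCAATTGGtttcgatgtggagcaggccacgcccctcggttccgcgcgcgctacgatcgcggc
The sterol response element letters TCACNCCAC occur once in the Hmgcs1 window, beginning 137 bases before the start, and among the other members only in a second promoter of Mlxipl. They occur in 2 of 27 members and 1.22% of 27025 genes with a promoter (1.05% of 32851 promoters). CCAAT, the box bound by NF-Y, a partner of SREBP, was found in 22 of 27 members (81.5%) and 37.5% of genes (33.8% of promoters). In Fasn a pair of CCAAT matches on opposite strands overlap. The E-box CACGTG was found in 5 members, Insig1, Mlxipl, Dhcr7, Elovl5 and Sc5d (18.5%), and in 6.86% of genes (6.02% of promoters). A match is a description of letters and not a bound site.

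Within a nucleus the members' counts were compared after each nucleus was thinned to 3000 UMIs. The mean was 16.7 and 20.2 member UMIs per nucleus in WT, against 26.4 and 39.5 in CKO. The 10th to 90th percentiles were 10 to 24, 12 to 29, 17 to 36 and 28 to 53 UMIs in the same order. The spread thus shifted as a whole in CKO replicate 2, where the 10th percentile lay near the WT replicate 2 90th percentile. The desaturation and elongation genes contributed 3.93 and 4.37 UMIs per nucleus in WT and 8.64 and 14.6 in CKO, and the sterol genes 2.46 and 2.91 in WT and 4.15 and 4.16 in CKO.

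The lowest 10% of each library's barcodes by UMI count served as an estimate of RNA outside nuclei, called free RNA below. These are deposited barcodes with medians of 1480 to 1840 UMIs, beside 1722 to 2267 over all barcodes, and whether some hold nuclei was not tested. There the members held 0.474 and 0.499% of UMIs in WT and 0.784 and 1.23% in CKO libraries, so the free RNA showed the same order as the hepatocyte nuclei. Of the 34 members tested in these barcodes, 17 had both CKO libraries above both WT libraries, against 12.7% of genes, and 33 had the higher mean in CKO. The cells this RNA came from cannot be told apart, nor can fewer source cells from less RNA per cell. 10 members had a share of UMIs at least 1.5 times higher in hepatocyte nuclei than in free RNA in all 4 libraries, namely Srebf2, Mlxipl, Insig2, Acss2, Acaca, Acacb, Elovl6, Gpam, Lpin1 and Pnpla3. For these 10 the median log2 change between genotypes was 0.83, and 5 had both CKO libraries above both WT libraries. Another 8, Fasn, Scd1, Scd2, Fads1, Hmgcs1, Mvk, Idi1 and Msmo1, were lower in hepatocyte nuclei than in free RNA in all 4 libraries, with a median of 0.74 and 8 of 8 above. Scd1 in hepatocyte nuclei was 0.294 and 0.380 of its free RNA share in WT, against 0.387 and 0.384 in CKO. Mitochondrial transcripts, which nuclei do not make, had ratios of 0.265, 0.310, 0.295 and 0.366. The Scd1 ratio was 1.05 to 1.31 times the mitochondrial one, so at this level Scd1 RNA of nuclei and free Scd1 RNA cannot be told apart. By the same measure 30 members were at least 1.5 times above that level in every library, and their median log2 change was 0.81, with 21 of 30 above. Both splits were chosen after the values were seen.

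**Figure D3:**
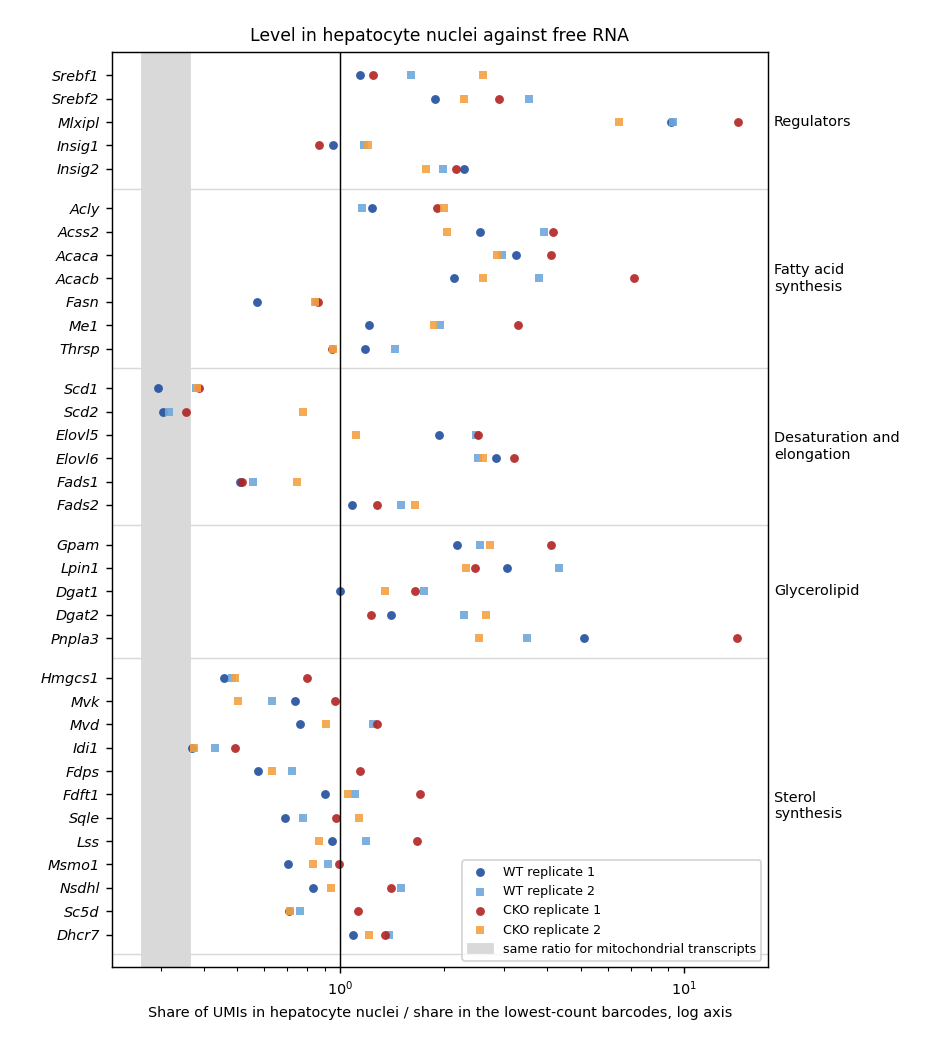
Share of UMIs in hepatocyte nuclei divided by the share in the lowest-count barcodes, per gene and library, on a log axis. The gray band spans the same ratio for mitochondrial transcripts (0.265 to 0.366), Scd1 lies at or next to it, and Mlxipl lies far to the right at 6.49 to 14.3.

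The next comparison set hepatocyte nuclei against the other classes of the same 4 libraries, with the library as a block. They numbered 92 to 1921 cholangiocyte, 137 to 1092 endothelial, 73 to 497 mesenchymal and 89 to 1589 macrophage nuclei per library, fewest in CKO replicate 2 in each class. In edgeR's test 22 members were higher and 4 lower in hepatocyte than in cholangiocyte nuclei, where 24.8% and 27.1% of all genes were. Against endothelial nuclei 18 were higher and 5 lower (28.4% and 29% of genes), against mesenchymal nuclei 21 and 3 (25.5% and 26.4%), and against macrophage nuclei 20 and 5 (28.8% and 30.3%). 18 members were higher in hepatocyte nuclei in all 4 comparisons (16.6% of genes were), among them 4 of 5 regulators and 6 of 7 fatty acid synthesis genes, but of the 12 sterol genes only Dhcr7. Mlxipl stood well above macrophage nuclei (log2 difference 3.72, SE 0.18, edgeR adjusted p = 5.27e-21) and over cholangiocyte nuclei 1.75 (SE 0.14). Acaca was 1.33 to 1.89 and Lpin1 1.52 to 1.54 log2 units higher in hepatocyte nuclei. Scd1, Scd2 and Idi1 were lower in hepatocyte nuclei in all 4 comparisons (14.3% of genes were), Scd1 by log2 differences of -0.77 to -1.21. Fasn differed in none of the 4, with log2 differences of -0.25 to 0.16 (edgeR adjusted p from 0.143 to 0.496). The fit with no library block called fewer members higher, namely 7, 10, 15 and 12 against cholangiocyte, endothelial, mesenchymal and macrophage nuclei.

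**Figure D4:**
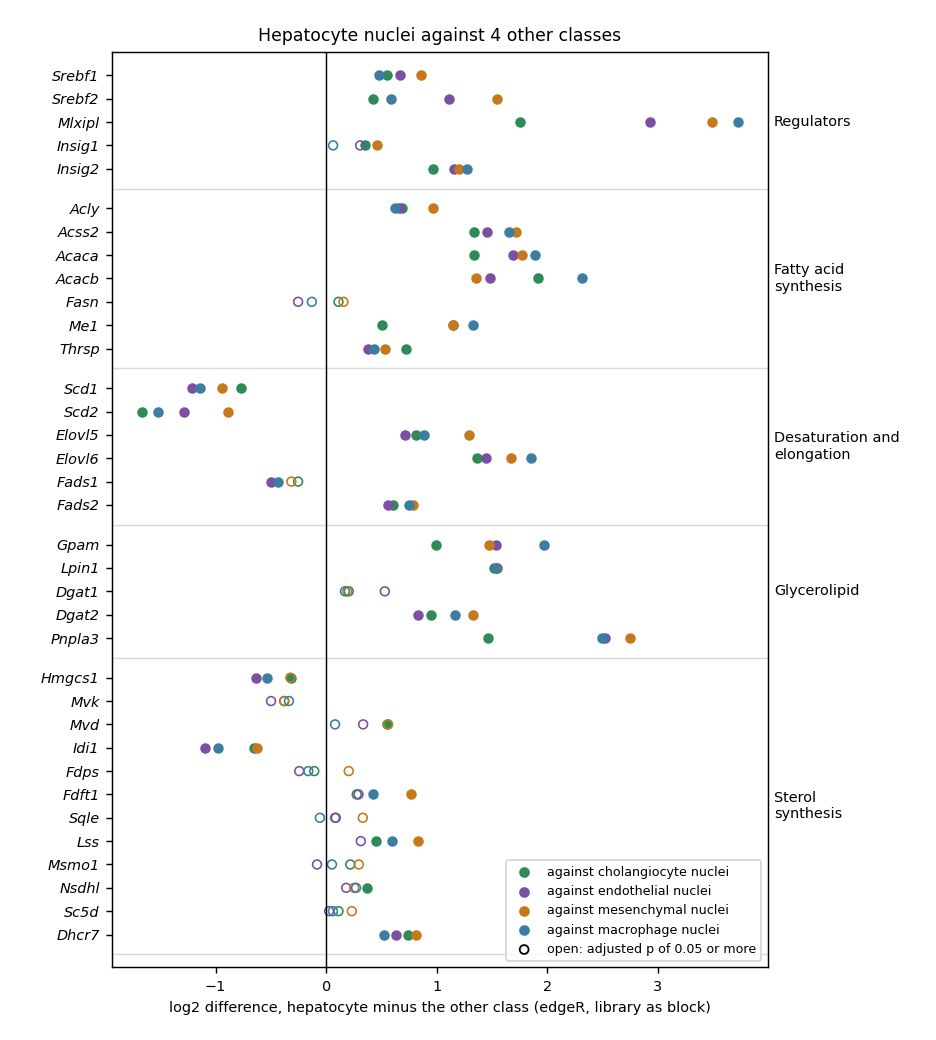
Fitted log2 difference of each gene between hepatocyte nuclei and 4 other classes, filled where the edgeR adjusted p is under 0.05. Most regulators and fatty acid synthesis genes lie to the right of 0, sterol genes lie on both sides of 0, and Scd1, Scd2 and Idi1 lie to the left in all 4 comparisons.

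The levels in the other classes were set beside the count that free RNA would give, scaled to each class by 14 secreted hepatocyte transcripts. Scd1 matched it, with observed over expected ratios of 0.899 to 1.02 in the 4 classes and 4 libraries, and did not exceed this estimate there. Idi1, also lower in hepatocyte nuclei in all 4 comparisons, had ratios of 0.815 to 1.185. In endothelial nuclei 0 members reached 1.5 times the expected count in all 4 libraries, in mesenchymal nuclei Acacb alone (1.68 to 2.38), and in macrophage nuclei Srebf2 alone (1.504 to 2.76). In cholangiocyte nuclei 4 did: Mlxipl (3.45 to 5.02), Srebf2 (2.33 to 3.44), Gpam (1.84 to 2.65) and Acss2 (1.58 to 2.39). The hepatocyte marker Hnf4a was also higher in these nuclei (240 to 316 CPM) than in free RNA (146 to 173 CPM), whereas Alb was lower. Whether RNA of hepatocyte nuclei within the cholangiocyte class adds to the 4 ratios was not tested. All counts for this class are read with that limit. Another 9 members reached it there in 3 of 4 libraries. No sterol synthesis gene reached it in all 4 libraries of any of these classes. Hepatocyte nuclei were thus compared, for the sterol genes, with levels not clearly above free RNA. The part of free RNA in the differences between classes was not tested.

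CKO and WT were also compared within each other class. Both CKO libraries lay above both WT libraries for 12 of 35 tested members in cholangiocyte nuclei (11.3% of genes), 22 of 33 in endothelial (15.6%), 17 of 33 in mesenchymal (15.5%) and 26 of 35 in macrophage nuclei (15.1%). Median log2 changes of the members were 0.55, 0.94, 0.67 and 0.71 in that order, beside 0.02 or less over all genes. Only 0, 1 and 1 members exceeded free RNA in all 4 libraries in endothelial, mesenchymal and macrophage nuclei. Free RNA itself held more member RNA in CKO libraries, so changes of these nuclei and of free RNA cannot be told apart there. In edgeR 0 members and 0 genes (0%) passed in each class, while 6, 14, 7 and 18 members and 215, 317, 363 and 788 genes (1.94%, 3.75%, 4.69% and 6.86%) had an unadjusted p under 0.05. Both CKO libraries lay below for 0, 1 (Mvk), 1 (Srebf2) and 0 members (15.3%, 16.9%, 18% and 18.2% of genes). DESeq2 called Scd1 alone, in endothelial, mesenchymal and macrophage nuclei, and 0 genes in cholangiocyte nuclei. These counts turned on single libraries. Without CKO replicate 1 edgeR called 12, 18, 9 and 9 members higher, of 202, 350, 139 and 56 genes called in either direction. Without CKO replicate 2 it called 1, 4, 2 and 2 members higher, of 243, 205, 174 and 109 genes. Without WT replicate 2 it called 2 members and 32 genes in macrophage nuclei. The cholangiocyte median was 0.89 without CKO replicate 1 and 0.13 without CKO replicate 2, and the endothelial median 1.42 and 0.40. Of the 4 members above free RNA in cholangiocyte nuclei, Acss2 was 73.7 and 91.8 CPM in WT and 133 and 226 CPM in CKO (log2 change 1.06, SE 0.35). Gpam was 148 and 163 CPM in WT and 223 and 295 CPM in CKO (0.71, SE 0.32). Both were higher in both CKO libraries, with 46 UMIs of Acss2 and 60 of Gpam in CKO replicate 2. Mlxipl overlapped at 211 and 236 CPM in WT and 150 and 688 CPM in CKO, and so did Srebf2 at 79.8 and 89.0 CPM in WT and 70.2 and 103 CPM in CKO.

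Hepatocytes differ along the axis from portal to central vein, so each library's nuclei were cut into 3 equal sets by their share of pericentral among pericentral and periportal marker UMIs. The sets with the highest and lowest share, called pericentral and periportal here, held 191 to 374 nuclei each, and edgeR with a library block called 592 of 10571 genes. 8 members were higher in the pericentral set (2.63% of genes were) and 2 were lower (2.97%). Acacb led, with log2 ratios of 0.88 and 0.57 in WT and 0.70 and 0.67 in CKO (fitted 0.71, SE 0.09, edgeR adjusted p = 2.73e-06). Me1 followed with 0.62 and 0.72 in WT and 0.72 and 0.57 in CKO (0.66, SE 0.07), and Acss2 with 0.30 and 0.42 in WT and 0.52 and 0.24 in CKO. All 4 libraries agreed in sign for these 3 genes of fatty acid synthesis. The other 5 were sterol genes, Msmo1 (0.46), Fdft1 (0.41), Nsdhl (0.36), Idi1 (0.34) and Fdps (0.32), each positive in every library. Insig2 was lower in the pericentral set in every library (-0.33, SE 0.08), and Acly in 3 of 4 (-0.30, SE 0.09), CKO replicate 1 being at 0.01. Scd1 had ratios of 0.27 and 0.12 in WT and 0.19 and 0.15 in CKO, and did not pass (edgeR adjusted p = 0.0628). Leaving out 1 library gave 4 to 7 higher calls (4 without WT replicate 1, 5 without WT replicate 2) and 0 or 1 lower ones, and the fit without the library block called 0 members. The median mitochondrial share per nucleus was 0.621 and 0.165% in WT and 1.585 and 0.291% in CKO pericentral sets. In periportal sets it was lower, at 0.526 and 0.146% in WT and 1.314 and 0.257% in CKO. Of the 8 higher members, Idi1 and Msmo1 were below free RNA in all 4 libraries and Fdps in 3. Acacb and Acss2 were at least 1.5 times above it in all 4. The part of free RNA in these ratios was not tested.

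**Figure D5:**
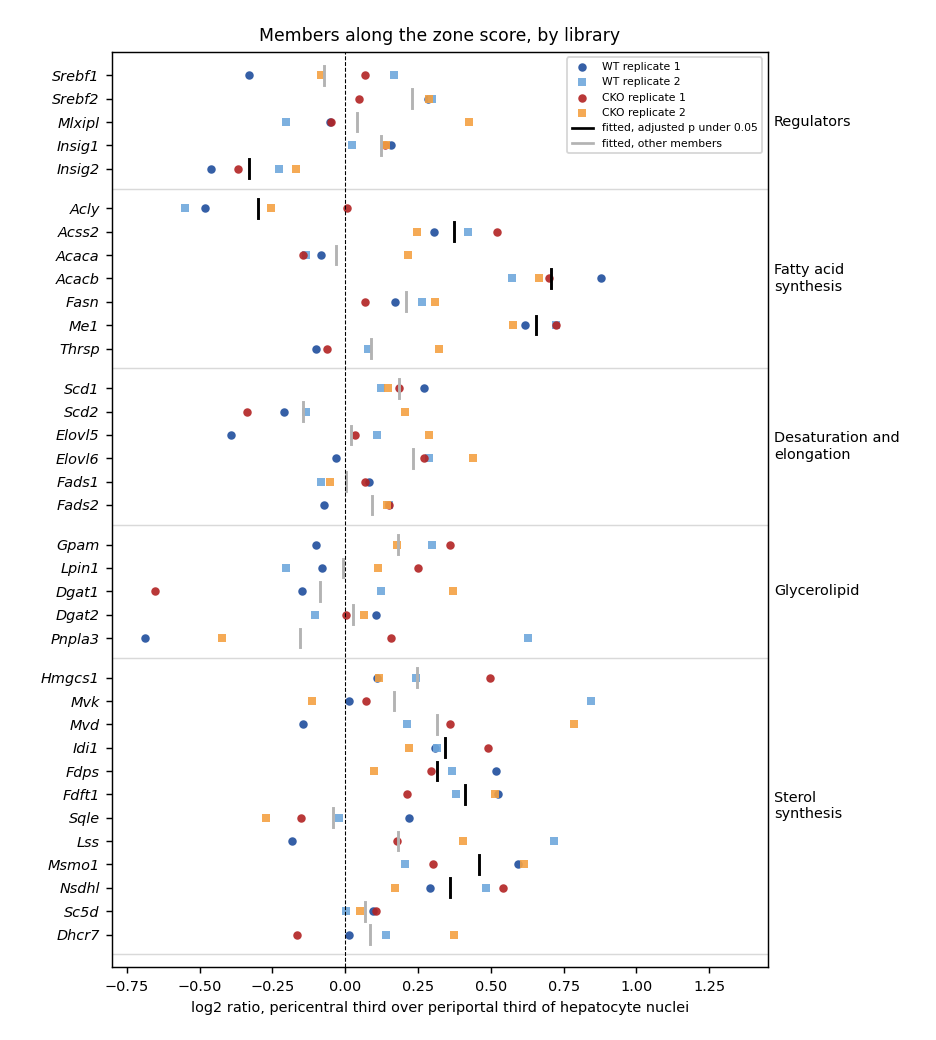
log2 ratio of each gene between the pericentral and the periportal set of hepatocyte nuclei, by library, with the fitted value as a bar (black where the edgeR adjusted p is under 0.05). Acacb and Me1 lie between 0.57 and 0.88 in all 4 libraries, and Lpin1 is below 0 in both WT and above 0 in both CKO libraries.

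Of 10 pericentral markers 6 also had both CKO libraries above both WT libraries (11.9% of genes did), with a median log2 change of 0.84. Of 10 periportal markers 0 were above and 4 below (13.3% of genes), with a median of -0.25. Within the pericentral set alone the members' median change between genotypes was 0.79, with 22 of 35 above (12.6% of genes were). Within the periportal set it was 0.75, with 23 above (13.2% of genes). These sets were cut within each library and are not matched between genotypes. Pericentral markers made up 30.2 and 23.5% of zone marker UMIs in WT and 46.0 and 39.5% in CKO pericentral sets, and 4.95 and 5.11% in WT and 9.52 and 9.17% in CKO periportal sets. The part of this shift in the members' change was not tested.

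The rest of both pathways was described from lists of 42 further genes. Of 16 other sterol pathway genes 15 had a positive log2 change between genotypes in hepatocyte nuclei, with a median of 0.40. For 11 of them both CKO libraries lay above both WT libraries (11.9% of all genes). The smallest p values were those of Stard4, a cholesterol carrier, at 28.6 and 25.8 CPM in WT and 46.5 and 53.2 CPM in CKO (log2 change 0.87, SE 0.21), and Tm7sf2, a sterol reductase, at 16.0 and 15.7 CPM in WT and 30.2 and 28.6 CPM in CKO (0.89, SE 0.23). Both sets of libraries were well apart. Of 26 other lipogenesis genes 24 were tested, 17 were positive, and the median was 0.26. Acsl5, an acyl-CoA synthetase, was 108 and 157 CPM in WT and 228 and 241 CPM in CKO (0.82, SE 0.26). Plin4, a lipid droplet coat protein, had the next smallest p and went the other way, at 11.7 and 33.8 CPM in WT and 7.36 and 11.6 CPM in CKO (-1.24, SE 0.61). Both CKO libraries lay above both WT libraries for 7 of the 24 (11.9% of all genes) and below for 3 (13.3%), Plin4, Lpin2 and Pgd, the last 2 named after their values were seen. The edgeR test over all genes called 0 of the 40 tested, and 5 had an unadjusted p under 0.05, as did 1.62% of all genes. Along the zone score 2 of 22 tested other lipogenesis genes, Aacs (0.45), which activates acetoacetate, and Lpin2 (0.26), were higher in the pericentral set by edgeR, as were 2.63% of all genes.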

How the data were processed

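Droplet single-nucleus libraries (10x Genomics 3' chemistry v3.1, per the labels' protocols) were processed by the submitters with Cell Ranger 5.0.1 on mm10, per the submitters' processing notes. The deposited values are raw UMI counts per gene and barcode. Whether intronic reads were counted is not given in the sources used here. 7 added sequences were left out, leaving 32285 genes. Libraries held 12261329 to 45620141 UMIs in 5184 to 16000 barcodes, 43664 in all, and 19 to 114 barcode sequences were shared by each pair of libraries (at most 1 among hepatocyte nuclei). The highest Scrublet scores were removed (0.8% per 1000 barcodes, 215 to 2048 barcodes a library).

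Hepatocyte nuclei were gated as described above. The limit for markers of other cells was first written as 0.1%, which left 36, 208, 27 and 375 nuclei, and was raised to 0.3% once these numbers were seen and before member values were computed. Other classes needed 1000 UMIs, 3 of their 14 markers, 0.2% of UMIs from them and 3 times the share of any other class. Lymphocyte nuclei (4 to 55 per library) were not tested. The counts of a class were added up within each library for edgeR's two-sided quasi-likelihood test (version 4.0.16 in R 4.3.3) after filterByExpr and TMM, with Benjamini-Hochberg adjustment over all genes tested and a threshold of 0.05. The code was checked on simulated counts first. Standard errors are the log2 change over the square root of its F statistic. Other settings tried were RLE scaling, DESeq2 1.42.0, a replicate block, no count filter, leaving out each library, other gates, Leiden clusters (scanpy 1.11.5) and, chosen after seeing the data, other marker limits, mitochondrial settings and single zones. Gene positions come from the GENCODE annotation and promoters from RefSeq GRCm38.p6. No promoter was given for Scd1, Scd2, Fads1, Dgat1, Dgat2, Fdps, Fdft1 and Sqle. Members, gene lists and tests were chosen with earlier results of these data known. Named are all members, Rbpj, and of each other list the genes past the threshold or, where none passed, the 2 with the smallest p, except for genes that are not reported here.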

Additional observations from a re-analysis of the deposited data

Results flagged for a closer look

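Lpin1 had a lower level in the pericentral than in the periportal set of hepatocyte nuclei in both WT libraries (log2 ratios -0.08 and -0.20 in replicates 1 and 2) and a higher level in both CKO libraries (0.25 and 0.11). The mean of the CKO ratios exceeded that of the WT ratios by 0.32. It was the only one of the 35 members whose libraries split by genotype in this way. The share of all genes with such a split was not computed, so this count has no background to be read against. The difference was not tested.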

How the results depend on the processing

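In hepatocyte nuclei the members' median log2 change between CKO and WT was positive under every alternative run, from 0.61 to 0.99, and 10 of 662 single-gene values over 19 alternatives changed sign. Sides of the threshold say nothing on stability here, since every edgeR adjusted p of the members was 0.9999 in the comparison as reported. With 1 library left out at a time, Srebf2 ranged from -0.049 (without WT replicate 1) to 0.57, Mlxipl from -0.21 (without CKO replicate 2) to 0.98 and Thrsp from -1.25 (without CKO replicate 2, and -0.06 without WT replicate 1) to 1.52. Lpin1 ranged from -1.54 to 0.24 (without WT replicate 2, and 0.062 without CKO replicate 1), Dgat2 from -0.55 (without CKO replicate 2) to 1.15 and Pnpla3 from -0.14 (without CKO replicate 1) to 1.65. At the 0.1% limit Dgat1 was at -0.035, and in the pericentral set Mvk was at -0.11. DESeq2 called 4 genes in hepatocyte nuclei, 1 of them a member, and 1 gene, Scd1, in each of endothelial, mesenchymal and macrophage nuclei. Without a count filter edgeR called 6 hepatocyte genes (0 members), 32 cholangiocyte genes (0 members), 47 endothelial (5 members), 43 mesenchymal (1 member) and 148 macrophage genes (9 members). With 1 library left out the calls between genotypes ranged over 0 to 27 genes in hepatocyte nuclei, and over 0 to 243 genes with 0 to 12 members higher and 0 to 1 lower in cholangiocyte nuclei. They ranged over 0 to 350 genes with 0 to 18 members higher in endothelial, over 10 to 174 genes with 0 to 9 higher and 0 to 1 lower in mesenchymal, and over 0 to 109 genes with 0 to 9 higher in macrophage nuclei. The lone library of a genotype is assumed there to vary like the others. The members' medians ranged over 0.13 to 0.89, 0.40 to 1.42, 0.46 to 1.22 and 0.57 to 1.14 in cholangiocyte, endothelial, mesenchymal and macrophage nuclei. No label pairs the replicate numbers. Across genes, the difference between the replicates in WT correlated with that in CKO at Pearson r = 0.251 in hepatocyte and 0.097 to 0.198 in other nuclei (genes are not independent). With a replicate block edgeR called 8 genes in mesenchymal nuclei, of which Scd1 was the 1 member, and 17 genes with 0 members in macrophage nuclei, and the block changed no other count of calls. Between classes, the fit with no library block called 7 members higher and 2 lower (3250 genes) against cholangiocyte, 10 and 2 (5105) against endothelial, and 12 and 2 against macrophage nuclei. Against mesenchymal nuclei it called 1 lower (4298 genes), beside the higher calls already given above for that class. It called 0 higher and 0 lower members and 3 genes between zones. Restricting each other class to nuclei at or below its median of hepatocyte RNA left 2 members lower than in cholangiocyte and 1 lower than in mesenchymal nuclei. With 1 library left out the median against cholangiocyte nuclei ranged over 0.33 to 0.63 and the members lower than in endothelial nuclei over 3 to 6. Between zones these fits called 287 to 491 genes, 4 to 7 members higher and 0 to 1 lower, and 2 sets of nuclei in place of 3 called 0 lower. The cause was not tested for any of these. Not run were a limit of 0 UMIs from other cells' markers (0 to 20 nuclei per library), the mitochondrial median over all libraries (0 nuclei in CKO replicate 1) and hepatocyte clusters named from markers (no cluster took the name). Members such as Scd2 (22 to 79 UMIs per library in hepatocyte nuclei) limit what depth can show.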

Other observations

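The second WT replicate had the higher CPM for 32 of the 35 members in hepatocyte nuclei, and the second CKO replicate for 25 of 35. Among the sterol genes these counts were 12 of 12 in WT and 7 of 12 in CKO. The shares of all genes with these orders were not computed, so the counts have no background to be read against.

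In hepatocyte nuclei the 7 tested male-biased genes summed to 4714 and 5275 CPM in WT and 603 and 7594 CPM in CKO. Cyp4a10, a fatty acid hydroxylase and PPAR alpha target, was 2.16 and 4.02 CPM in WT and 26.5 and 19.7 CPM in CKO (log2 change 2.97, SE 0.44), which did not pass edgeR's test over all genes. Pck1, which commits carbon to gluconeogenesis, was 1131 and 993 CPM in WT and 381 and 744 CPM in CKO. Cyp4a10 and Pck1 come from a list of fatty acid oxidation and fasting genes, of which 13 were tested. Both CKO libraries lay above both WT libraries for 3 of the 13 (11.9% of all genes) and below for 2 (13.3%). Pck1 is also 1 of the 10 hepatocyte and 1 of the 10 periportal markers used here.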
